A study of Mus musculus with 16 samples.

Results

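The nuclear genes of the mitochondrial respiratory chain were followed across 2 mouse CD8 T cell clones activated with and without cyclosporine A. Members were chosen by name: genes beginning with Nduf and a letter a, b, c, s or v (complex I subunits and assembly factors), Sdha to Sdhd (complex II), Uqcr (complex III), Cox4 to Cox8 (complex IV) and Atp5 (complex V). A probe set had to carry exactly 1 gene symbol in the platform annotation, and a gene with several was represented by the brightest, by its mean on the 16 arrays. The rule gave 89 of the 19938 genes with a usable probe set, made up of 36 complex I subunits, 7 complex I assembly factors, 4 genes of complex II, 8 of complex III, 17 of complex IV and 17 of complex V. It used no expression change, but the list was chosen with earlier results of these data known.

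Complexes I, III and IV pass electrons from NADH to oxygen and pump protons across the inner mitochondrial membrane, complex II feeds in electrons from succinate, and complex V, the ATP synthase, uses the proton gradient to make ATP. Most subunits are encoded in the nucleus and imported, and a few are encoded by mitochondrial DNA and made on mitochondrial ribosomes. In T cells, activation is known to start mitochondrial biogenesis along with a rise in glycolysis, and memory cells are known for a high respiratory capacity.

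The series holds 16 Affymetrix whole-transcript arrays in 4 groups of 4. One clone is labelled conventional and sensitive to cyclosporine, the other unconventional and resistant to it, and both are CD8 T cells. Each was activated with a monoclonal anti-CD3 antibody fixed to a surface, without recombinant cytokines, and the drug groups received 1 ug per ml of cyclosporine A. This compound binds cyclophilin and blocks calcineurin, the phosphatase that NFAT needs to enter the nucleus after stimulation of the T cell receptor. Beforehand both clones grew in a cytokine mixture of IL-1a, IL-6, IL-7, IL-15, TNF-α and alpha and gamma interferon. Each type of cell is represented by 1 clone, so a clone difference is one between these lines, and resting cells are not part of the comparisons. The labels leave unsaid whether the 4 arrays of a group come from 4 cultures, so the spread behind each p-value is that of these samples and may be technical.

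Levels are log2 expression values as deposited, given per array or as mean ± SD, and a change is a difference of log2 values with its standard error (SE), so that 1.00 is a doubling. A gene was called higher or lower at an adjusted p under 0.05 from a limma model of all 19938 genes with Benjamini-Hochberg adjustment. Arrays of a group correlated at 0.995 to 0.998, and array medians lay between 5.16 and 5.35. The arrays were normalized to like distributions, so each change is relative to the other transcripts of the cell, and a shared shift of most transcripts would not show. In bulk RNA, fewer cells of a type and less RNA per cell cannot be told apart.

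The T cell label held in the markers of the receptor complex: the group means of Cd3d, Cd3e and Cd3g lay between 10.52 and 12.74. The co-receptor chain Cd8a averaged 12.50 and 11.92 in the conventional clone without and with the drug and 10.31 and 8.56 in the unconventional clone, while Cd8b1 stood at 12.31 and 12.31 and at 10.24 and 10.26. Cd2, a surface protein of most T cells, lay at 3.99 to 4.25 in every group, near the low end of the arrays. Cd4 reached at most 4.32, the 3 measured B cell markers at most 5.16 and the 3 granulocyte and erythroid markers at most 5.01. The 4 fibroblast and epithelium markers lay higher in part. The group means were 6.06 to 6.68 for Col1a1, 5.79 to 6.15 for Col1a2, 5.76 to 6.01 for Krt8 and 4.28 to 4.30 for Epcam. Of the 5 macrophage and dendritic cell markers, 4 stayed at or below 4.86, whereas Cd68, a lysosomal protein that T cells also can express, averaged 7.26 and 8.05 in the conventional and 8.71 and 9.13 in the unconventional clone. The order of Cd68 over the groups was that of the member means given next, and the part of such cells in the results was not tested.

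The average level of the chain was slightly higher on the arrays with cyclosporine A in both clones, and the distance was larger in the resistant clone. The mean level over the 89 genes was 9.34, 9.29, 9.27 and 9.31 on the 4 conventional arrays with anti-CD3 alone and 9.39, 9.37, 9.36 and 9.41 with the drug. For the unconventional clone it was 9.40, 9.44, 9.41 and 9.49 without the drug and 9.65, 9.62, 9.58 and 9.61 with it. In neither clone did the arrays with and without the drug overlap in this mean.

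In the conventional clone 26 members rose and 12 fell with cyclosporine A, where 15.9% of all genes were called higher and 15.5% lower. The median change of the members was 0.07 against 0.02 for all genes. In the unconventional clone 42 members rose and 3 fell, where 12.6% of all genes were called higher and 12.3% lower, and the medians were 0.21 and 0.02. Most of the changes were small. At a change of at least 1.5-fold, 3 members rose and 4 fell in the conventional clone, and 1 rose and 0 fell in the unconventional clone. The arrays with and without the drug did not overlap for 41 of the 89 members in the conventional clone, against 30.5% of all genes, and for 44 in the unconventional clone, against 27.2%. Overlap was not counted among well measured genes alone, so the members and all genes are not like sets here.

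Calls are more frequent among well measured genes, and 83 of the 89 members but only 9645 of all genes had a mean of at least 6 in some group. In the same fit of all genes, 28.4% of these 9645 were called higher and 29.5% lower in the conventional clone, and 23.2% and 23.8% in the unconventional clone. Set against these, the 29.2% of all 89 members that rose in the conventional clone was near the background and the 13.5% that fell was below it. For the unconventional clone the 47.2% that rose was above the background and the 3.37% that fell was below it. By limma 0 genes of complexes I, II, IV and V were called lower in the unconventional clone, and 0 were lower at an unadjusted p under 0.05.

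**Figure D1:**
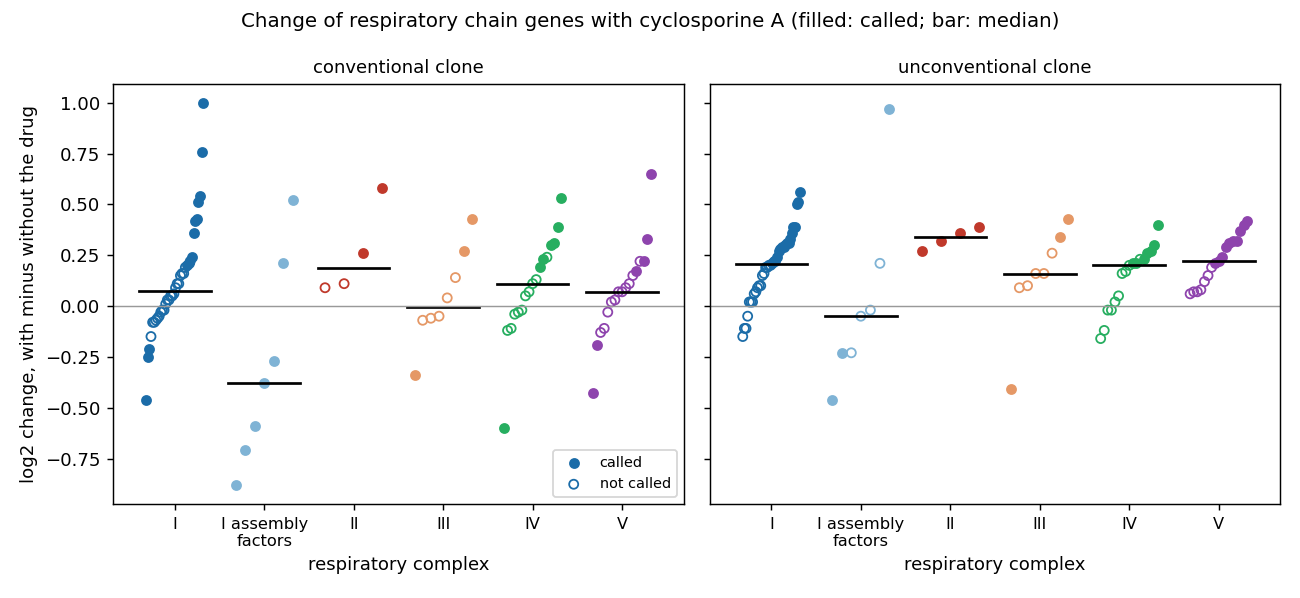
The vertical axis gives the log2 change of each of the 89 genes, with minus without cyclosporine A, for the conventional clone on the left and the unconventional clone on the right, by complex; filled points were called and bars are medians. Complex II lies highest in the unconventional clone with a median of 0.34, and the complex I assembly factors lie lowest in the conventional clone with a median of -0.38.

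Complex I, the NADH dehydrogenase, had the longest list of subunits and no called fall in the unconventional clone. With the drug, 10 of its 36 subunits rose and 3 fell in the conventional clone, with a median change of 0.07, and 18 rose and 0 fell in the unconventional clone, with a median of 0.21. In the conventional clone 27.8% rose and 8.33% fell, against 28.4% and 29.5% of the genes with a group mean of at least 6. The share that rose there was thus near the background. In the unconventional clone 50% rose, against 23.2%. The 6 measured core subunits, which carry the flavin or iron-sulfur clusters or lie beside them, were called higher in 1 case in the conventional and 2 in the unconventional clone. Ndufs1, an iron-sulfur subunit of the NADH-oxidising arm, was the core subunit called in both clones, with changes of 0.24 (SE 0.06, adjusted p = 0.006) and 0.31 (SE 0.06, adjusted p = 0.001). Its arrays read 10.07, 10.05, 9.96 and 9.95 without and 10.24, 10.27, 10.19 and 10.30 with the drug in the conventional clone. The unconventional clone read 9.97, 10.08, 10.20 and 10.11 without and 10.40, 10.35, 10.45 and 10.38 with it. The groups did not overlap in either clone.

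Ndufv1, which binds NADH and FMN, was at the threshold in the unconventional clone with a change of 0.22 (SE 0.08, adjusted p = 0.050), and 17 of 23 alternative settings ended that call. The change of Ndufv1 in the conventional clone was 0.03 (SE 0.08). The other core subunits were not called in either clone. Ndufv2, an iron-sulfur subunit of the same module, had changes of 0.22 and 0.19, Ndufs3, a subunit of the peripheral arm, 0.05 and 0.07, Ndufs7, which lies next to the quinone site, -0.07 and 0.20, and Ndufs8, another iron-sulfur subunit, -0.05 and 0.02, with SE of 0.06 to 0.09.

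Of the 29 accessory subunits, 9 rose and 3 fell in the conventional clone and 16 rose and 0 fell in the unconventional clone. Their median changes were 0.09 and 0.22, against 0.04 and 0.19 for the 6 core subunits, and no test compared them. Accessory subunits surround the catalytic core and are needed for its assembly and stability. Ndufa3, an accessory subunit of the membrane arm, had the largest rise of all members in the conventional clone. There it read 8.70, 8.81, 8.72 and 8.84 without the drug and 9.83, 9.72, 9.84 and 9.67 with it, a change of 1.00 (SE 0.07, adjusted p = 1.4e-09). Arrays of the unconventional clone read 9.09, 9.24, 9.11 and 9.27 without and 9.80, 9.72, 9.58 and 9.84 with the drug, a change of 0.56 (SE 0.07, adjusted p = 8.0e-06). The clones thus stood apart without the drug, by 0.41 (SE 0.07, adjusted p = 1.3e-04), and overlapped with it, at a difference of -0.03 (SE 0.07).

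Ndufv3 followed with 0.76 (SE 0.14) and 0.51 (SE 0.14), on arrays that spread more than those of most members: without the drug the conventional clone read 8.68, 8.16, 7.98 and 8.68, and with it 9.21, 8.94, 9.03 and 9.37. Ndufb11 rose by 0.54 (SE 0.06) and 0.29 (SE 0.06), and Ndufa13, also known as Grim19, by 0.51 (SE 0.10) and 0.39 (SE 0.10). Ndufa6 rose by 0.42 (SE 0.07) and 0.50 (SE 0.07) and Ndufa1 by 0.43 (SE 0.08) and 0.39 (SE 0.08), with like sizes in both clones. The other complex I genes called higher in both clones were Ndufa11, Ndufb7 and Ndufb9, with rises of 0.20 to 0.36. Of these, the conventional calls of Ndufa11 and Ndufb7 ended under 6 and 5 alternative settings.

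The 3 falls in the conventional clone were Ndufab1, Ndufc2 and Ndufa4, and none of them was called in the unconventional clone. Ndufab1 is the mitochondrial acyl carrier protein, which works in fatty acid synthesis within the organelle as well as in complex I. It read 9.94, 9.89, 9.92 and 9.87 without and 9.40, 9.44, 9.41 and 9.54 with the drug in the conventional clone, a change of -0.46 (SE 0.07, adjusted p = 1.5e-05), and the groups stood clear of each other. Its change in the unconventional clone was -0.05 (SE 0.07), and the difference between the clones' changes was 0.41 (SE 0.10, adjusted p = 0.005). Ndufc2 had changes of -0.25 (SE 0.08) in the conventional and 0.16 (SE 0.08) in the unconventional clone, a difference of 0.42 (SE 0.12, adjusted p = 0.016). Ndufa4, a protein named for complex I that later work places in complex IV, had changes of -0.21 (SE 0.07) and -0.11 (SE 0.07). The conventional calls of Ndufc2 and Ndufa4 each ended under 4 settings, with adjusted p up to 0.066 and 0.11. Ndufa4l2, a paralogue of Ndufa4 that is known to be induced by hypoxia, lay at 4.71 to 5.18 in the group means and was not called with the drug in either clone.

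Promoters are shown for members that carry the main patterns, as 250 bases before the RefSeq start of the gene in assembly GRCm38.p6, 5′ to 3′ on the gene's strand. The promoter table held 73 of the 89 members. Capitals mark GCGCA, any base and GCGC for NRF1 and CCGGAAG for GABPA, factors known to act on respiratory genes, searched on both strands; the third search was AAGATGGC for YY1. In windows of 300 bases that end 50 bases after the start, NRF1 letters were found in 24.7% of the 73 members, 13% of the 7839 genes with a group mean of at least 6 and 4.6% of all 32851 windows. GABPA letters were found in 24.7%, 22.5% and 8.86%, and YY1 letters in 13.7%, 5.93% and 2.75%. These shares describe letters in a window and not bound sites. Ndufa3, on the plus strand at chr7:3617123-3617372, is shown because it rose most in the conventional clone, and it has none of the 3 motifs in this stretch, while YY1 letters lie in its window after the start. The RefSeq gene record of Ndufa3 begins at 3617347, which is inside the printed stretch, so the start used by the promoter table lies downstream of it:
Ndufa3: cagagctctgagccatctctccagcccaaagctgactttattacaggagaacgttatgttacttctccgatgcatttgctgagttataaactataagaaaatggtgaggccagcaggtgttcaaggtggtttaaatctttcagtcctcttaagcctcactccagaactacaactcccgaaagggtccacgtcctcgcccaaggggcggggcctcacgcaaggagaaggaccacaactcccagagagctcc
NRF1 or GABPA letters were held by 43.8% of the 73 members, 32.4% of the genes with a group mean of at least 6 and 12.6% of all windows. Of the complex I subunits 10 of 32, or 31.2%, held them, near the share of the brighter genes, and 7 of 32 held YY1 letters, 21.9% against 5.93%.

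The complex I assembly factors, which help build the complex and are not part of it, went against its subunits in the conventional clone. There 5 of 7 fell with the drug and 2 rose, with a median of -0.38, and in the unconventional clone 2 fell and 1 rose, with a median of -0.05. In the conventional clone these were 71.4% and 28.6%, against 29.5% and 28.4% of the brighter genes. In the unconventional clone they were 28.6% and 14.3%, against 23.8% and 23.2%. Ndufaf5, a methyltransferase-like factor, read 6.64, 6.70, 6.44 and 6.85 without and 5.79, 5.91, 5.46 and 5.94 with the drug in the conventional clone, a change of -0.88 (SE 0.11, adjusted p = 2.9e-06). On the unconventional side the arrays read 6.89, 6.55, 6.60 and 6.52 without and 6.39, 6.69, 6.73 and 6.68 with it, a change of -0.02 (SE 0.11). The conventional groups were apart and the unconventional groups overlapped. The difference between the changes, 0.87 (SE 0.16, adjusted p = 6.2e-04), was the largest of any member.

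Ndufaf6 had changes of -0.71 (SE 0.11) and -0.23 (SE 0.11), with its conventional arrays under the drug spread from 5.17 to 5.81. Ndufaf2 fell by 0.59 (SE 0.08) in the conventional and by 0.23 (SE 0.08) in the unconventional clone, and the second call ended under 5 settings with adjusted p up to 0.1. Ndufaf4 fell in both, by 0.38 (SE 0.07) and 0.46 (SE 0.07). It read 8.91, 8.99, 8.95 and 8.94 without and 8.56, 8.63, 8.51 and 8.56 with the drug in the conventional clone, and 9.42, 9.69, 9.47 and 9.41 against 8.98, 9.08, 9.02 and 9.06 in the unconventional clone. Ndufaf7, another methyltransferase, had changes of -0.27 (SE 0.07) and -0.05 (SE 0.07).

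Ndufaf3, which is known to work together with Ndufaf4, went the other way. It rose by 0.52 (SE 0.07, adjusted p = 1.3e-05) in the conventional clone and by 0.97 (SE 0.07, adjusted p = 7.2e-09) in the unconventional clone, the largest rise of any member there. The unconventional arrays read 7.07, 7.21, 6.95 and 7.17 without and 8.11, 8.09, 7.99 and 8.08 with the drug. Those of the conventional clone read 7.53, 7.28, 7.50 and 7.34 without and 7.98, 7.83, 7.96 and 7.93 with it. The unconventional clone was lower without the drug, by 0.31 (SE 0.07, adjusted p = 0.002), and with it the difference of 0.14 (SE 0.07) was not called. Ndufaf1 had a change of 0.21 (SE 0.08) in each clone and was called only in the conventional one, at adjusted p = 0.045, which 10 settings ended.

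Complex II, succinate dehydrogenase, was the complex in which every subunit rose in the unconventional clone. It belongs to the citric acid cycle as well as to the chain and has no subunit encoded in mitochondrial DNA. All 4 genes rose there, by 0.27 to 0.39, and 2 of 4 rose in the conventional clone. Of the brighter genes 23.2% and 28.4% rose in these clones. Sdhb, the iron-sulfur subunit, read 9.17, 9.22, 9.09 and 9.24 without and 9.82, 9.72, 9.71 and 9.78 with the drug in the conventional clone, a rise of 0.58 (SE 0.06, adjusted p = 2.6e-07). For the unconventional clone the arrays read 9.34, 9.38, 9.21 and 9.37 without and 9.64, 9.70, 9.72 and 9.70 with it, a rise of 0.36 (SE 0.06, adjusted p = 1.5e-04). Sdhb was higher on every array with the drug than on any without it.

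Sdhd, a membrane anchor, showed the reverse order of sizes. In the conventional clone it read 10.21, 10.23, 10.08 and 10.33 without and 10.30, 10.26, 10.33 and 10.32 with the drug, a change of 0.09 (SE 0.07). The unconventional clone read 10.38, 10.36, 10.29 and 10.49 without and 10.87, 10.74, 10.78 and 10.72 with it, a rise of 0.39 (SE 0.07, adjusted p = 1.6e-04). The groups overlapped in the first clone and not in the second. The difference between the changes, 0.30 (SE 0.10), was called at adjusted p = 0.038, and 11 of 22 settings ended that call with adjusted p up to 0.087. Sdhc, the other anchor, rose in both clones, by 0.26 (SE 0.07) and 0.32 (SE 0.07). Sdha, the flavin-carrying catalytic subunit, had a change of 0.11 (SE 0.06) in the conventional clone and rose by 0.27 (SE 0.06) in the unconventional clone.

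All 3 complex II promoters in the table held NRF1 or GABPA letters, against 32.4% of the genes with a group mean of at least 6, and those of Sdha and Sdhd are shown as the 2 members that rose in the unconventional clone and were not called in the conventional one. Sdha lies on the minus strand with the stretch at chr13:74350241-74350490 and has 3 copies of the NRF1 letters, the last of which ends at the base before the start. Sdhd lies on the minus strand at chr9:50603850-50604099 and has 1 copy of each motif:
Sdha: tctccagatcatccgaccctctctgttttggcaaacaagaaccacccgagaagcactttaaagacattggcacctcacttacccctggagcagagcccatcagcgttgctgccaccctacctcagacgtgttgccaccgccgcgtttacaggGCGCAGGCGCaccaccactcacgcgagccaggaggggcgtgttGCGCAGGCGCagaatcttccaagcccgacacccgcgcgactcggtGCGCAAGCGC
Sdhd: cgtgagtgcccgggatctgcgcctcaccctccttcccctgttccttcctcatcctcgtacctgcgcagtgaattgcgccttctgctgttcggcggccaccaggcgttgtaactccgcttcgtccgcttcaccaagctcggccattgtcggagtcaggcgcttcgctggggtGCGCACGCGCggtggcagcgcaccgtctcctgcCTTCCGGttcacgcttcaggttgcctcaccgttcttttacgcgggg
The promoter of Sdhb, which rose in both clones, held GABPA letters and no NRF1 letters in its window.

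Complex III, which passes electrons from ubiquinol to cytochrome c, held one of the 3 falls common to both clones. With the drug 2 of its 8 genes rose and 1 fell in each clone, with medians of -0.00 and 0.16. These were 25% and 12.5%, against 28.4% and 29.5% of the brighter genes in the conventional clone. In the unconventional clone 23.2% and 23.8% of those genes rose and fell, so the rises were near the background in both. Uqcrfs1, the Rieske iron-sulfur protein, read 8.59, 8.54, 8.47 and 8.62 without and 8.23, 8.28, 8.03 and 8.32 with the drug in the conventional clone, a fall by 0.34 (SE 0.08, adjusted p = 0.002). Arrays of the unconventional clone read 8.78, 8.62, 8.49 and 8.70 without and 8.21, 8.24, 8.37 and 8.12 with it, a fall by 0.41 (SE 0.08, adjusted p = 5.9e-04). Neither pair of groups overlapped, and the clones were not called different in either condition.

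The core proteins behaved otherwise. Uqcrc1 read 11.15, 11.15, 11.25 and 11.06 without and 11.07, 10.97, 11.19 and 11.12 with the drug in the conventional clone, a change of -0.07 (SE 0.08). On the unconventional side the arrays read 11.04, 11.41, 11.30 and 11.50 without and 11.62, 11.67, 11.66 and 11.68 with it, a rise of 0.34 (SE 0.08, adjusted p = 0.004). Without the drug the unconventional arrays were spread, with replicate 1 lowest, and with it they lay within a narrow band. The difference between the changes was 0.41 (SE 0.12, adjusted p = 0.021). Uqcrc2 had changes of -0.06 (SE 0.06) and 0.10 (SE 0.06). Of the small subunits, Uqcrb rose by 0.43 (SE 0.09) in the conventional clone and had a change of 0.16 (SE 0.09) in the other, and Uqcrh, the hinge protein, rose in both by 0.27 (SE 0.07) and 0.43 (SE 0.07).

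Cytochrome c1, encoded by Cyc1, is a subunit of complex III whose name lies outside the rule. It fell by 0.35 (SE 0.07, adjusted p = 5.5e-04) in the conventional clone and had a change of 0.15 (SE 0.07) in the unconventional clone, a difference of 0.50 (SE 0.10, adjusted p = 0.001). Cycs, the soluble cytochrome c that receives the electrons, had a change of -0.02 (SE 0.08) in the conventional clone and fell in the unconventional clone by 0.25 (SE 0.08, adjusted p = 0.021).

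Complex IV, cytochrome c oxidase, contains isoforms known from particular tissues beside the ubiquitous ones, and most of its rises were of the latter. With the drug 6 of 17 genes rose and 1 fell in the conventional clone and 7 rose and 0 fell in the unconventional clone, with medians of 0.11 and 0.20. Of these rises, 5 and 6 were among the 10 genes left without the tissue isoforms. Of all 17, 35.3% rose and 5.88% fell in the conventional clone, against 28.4% and 29.5% of the brighter genes. In the unconventional clone 41.2% rose, against 23.2%. Cox5b, a nuclear-encoded subunit next to the catalytic core, rose by 0.23 (SE 0.06) in each clone, from 12.03 ± 0.03 to 12.27 ± 0.04 (SD, n = 4) and from 11.80 ± 0.06 to 12.04 ± 0.04 (SD, n = 4). Cox5a, its partner in name, went the other way in the conventional clone. It read 10.40, 10.40, 10.43 and 10.31 without and 9.75, 9.76, 9.63 and 10.00 with the drug, a change of -0.60 (SE 0.09, adjusted p = 9.4e-06), with the groups apart. For the unconventional clone the arrays read 10.54, 10.19, 10.23 and 10.30 without and 10.24, 10.17, 10.27 and 10.13 with it, a change of -0.12 (SE 0.09), with the groups overlapping. The difference between the changes was 0.49 (SE 0.12, adjusted p = 0.007).

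Cox4i1, the ubiquitous subunit 4, was not called in either clone, with changes of 0.11 and 0.17 (SE 0.06 each). Cox6a1, Cox7a2 and Cox7b rose in both clones, by 0.31 and 0.30, by 0.30 and 0.21, and by 0.19 and 0.27. Several of these calls were close to the threshold. That of Cox6a1 in the conventional clone ended without replicate 4 of the conventional group with the drug, at adjusted p = 0.054, and that of Cox7b there ended under 12 settings. Cox6a1 and Cox7a2 in the unconventional clone lost the call under 4 and 6 settings. Cox7a2l, a paralogue of subunit 7a that is known to join complexes III and IV in supercomplexes, rose by 0.53 (SE 0.08, adjusted p = 1.5e-05) in the conventional clone and had a change of 0.20 (SE 0.08, adjusted p = 0.073) in the unconventional clone. The difference of -0.33 (SE 0.11, adjusted p = 0.045) was ended by 14 of 22 settings. Cox6b1 and Cox6c, small subunits, had changes of -0.03 and 0.05 in the conventional clone and rose by 0.21 and 0.26 in the other, the call of Cox6b1 ending under 5 settings. Cox8a had changes of 0.13 and 0.23 and was not called.

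The isoforms known from testis, lung or muscle were mostly near the low end of the arrays. The group means of Cox4i2, Cox6b2, Cox7b2, Cox8b and Cox8c all lay between 3.29 and 5.65, and none of them was called with the drug. Cox6a2, the isoform of heart and muscle, averaged 5.68 to 6.24, and was called with the drug in the conventional clone at a change of 0.39 (SE 0.11, adjusted p = 0.007), although its arrays overlapped. Cox7a1, also a heart and muscle isoform, was the exception. In the unconventional clone it read 6.41, 6.73, 6.58 and 6.41 without and 7.25, 6.82, 6.79 and 6.86 with the drug, a change of 0.40 (SE 0.12, adjusted p = 0.020) that 5 settings ended with adjusted p up to 0.096. In the conventional clone it read 5.19, 5.08, 4.75 and 4.77 without and 4.96, 5.40, 5.15 and 5.25 with it.

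Of the complex IV promoters, 3 of 12 held NRF1 or GABPA letters, 25% against 32.4% of the genes with a group mean of at least 6. The 12 include Cox6b2, Cox7b2 and Cox8b, which lay below 6 in every group and held neither, so the 2 shares are not of like genes. Cox6a1 is shown as a member that rose in both clones and Cox7a1 as the one with the largest clone difference. Cox6a1 lies on the minus strand, with the stretch at chr5:115348959-115349208, and has 2 copies of the NRF1 letters and 1 of the GABPA letters. Cox7a1 lies on the plus strand at chr7:30183921-30184170 and has neither in this stretch:
Cox6a1: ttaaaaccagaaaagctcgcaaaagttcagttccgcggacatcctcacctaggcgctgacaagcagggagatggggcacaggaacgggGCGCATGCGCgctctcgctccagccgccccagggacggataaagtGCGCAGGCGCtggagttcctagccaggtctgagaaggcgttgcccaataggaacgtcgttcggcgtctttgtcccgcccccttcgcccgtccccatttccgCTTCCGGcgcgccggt
Cox7a1: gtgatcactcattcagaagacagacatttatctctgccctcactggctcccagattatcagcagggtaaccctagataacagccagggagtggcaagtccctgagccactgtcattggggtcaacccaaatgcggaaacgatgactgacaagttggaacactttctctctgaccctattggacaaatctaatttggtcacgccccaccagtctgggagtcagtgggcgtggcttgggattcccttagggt
The promoter of Cox6a1 thus carries both motifs searched for in capitals, and that of Cox7a1 neither.

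Complex V, the ATP synthase, rose in the unconventional clone without a called fall. With the drug 4 of its 17 genes rose and 2 fell in the conventional clone, with a median of 0.07, and 10 rose and 0 fell in the unconventional clone, with a median of 0.22. In the conventional clone these were 23.5% and 11.8%, both below the 28.4% and 29.5% of the brighter genes. In the unconventional clone 58.8% rose, against 23.2%. All 17 changes were above 0 in the unconventional clone, from 0.06 to 0.42, and 12 of 17 were in the conventional clone. The soluble F1 head and central stalk differed from subunit to subunit. Atp5a1 and Atp5b, the alpha and the catalytic beta subunit, were not called in either clone, with changes of -0.13 and 0.08 and of -0.11 and 0.07 (SE 0.06 each). Atp5c1, the gamma subunit that turns in the head, rose by 0.17 (SE 0.06) and 0.32 (SE 0.06), the conventional call ending under 5 settings with adjusted p up to 0.096.

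Atp5d, the delta subunit of the central stalk, fell in the conventional clone, where it read 12.34, 12.29, 12.38 and 12.19 without and 11.86, 11.76, 11.91 and 11.95 with the drug, a change of -0.43 (SE 0.08, adjusted p = 2.1e-04). The unconventional clone read 12.01, 12.30, 12.30 and 12.41 without and 12.35, 12.42, 12.32 and 12.42 with it, a change of 0.12 (SE 0.08). The conventional groups were apart, and in the unconventional clone replicate 1 without the drug lay below the clone's other arrays. The difference between the changes was 0.55 (SE 0.11, adjusted p = 0.001). Atp5e, the epsilon subunit, had a change of 0.02 (SE 0.10) in the conventional clone and rose in the other by 0.31 (SE 0.10), the rise ending under 5 settings with adjusted p up to 0.11. Atp5o, which joins the head to the outer stalk, had a change of 0.07 (SE 0.06) and rose by 0.21 (SE 0.06).

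The membrane part held the largest rise of the complex. Atp5mpl, a small subunit of it, read 10.55, 10.54, 10.56 and 10.62 without and 11.19, 11.21, 11.29 and 11.20 with the drug in the conventional clone, a rise of 0.65 (SE 0.06, adjusted p = 7.5e-08). Arrays of the unconventional clone read 10.96, 11.08, 10.88 and 11.11 without and 11.45, 11.45, 11.34 and 11.37 with it, a rise of 0.40 (SE 0.06, adjusted p = 7.6e-05). Both pairs of groups were apart. Atp5j2 and Atp5h, subunits of the membrane part and the outer stalk, also rose in both clones, by 0.33 and 0.32 and by 0.22 and 0.29. Atp5l and Atp5k, the subunits g and e, rose in the unconventional clone by 0.42 (SE 0.09) and 0.37 (SE 0.07), where their changes in the conventional clone were 0.22 (SE 0.09) and 0.03 (SE 0.07). For Atp5k the difference was called, at 0.35 (SE 0.10, adjusted p = 0.022), though not without replicate 2 of either unconventional group, at adjusted p of 0.054 and 0.056.

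Subunit c, of which copies form the rotating ring, is encoded by 3 genes for the same mature protein, and their calls differed. In the unconventional clone the 3 changes were of like size, 0.15 to 0.24, and no test compared the genes with each other. Atp5g1 and Atp5g2 were not called in either clone, with changes of 0.09 and 0.19 and of -0.03 and 0.15. Atp5g3 was the only member called in opposite directions. It read 11.46, 11.46, 11.47 and 11.33 without and 11.26, 11.16, 11.23 and 11.30 with the drug in the conventional clone, a change of -0.19 (SE 0.07, adjusted p = 0.038), and 11.70, 11.61, 11.55 and 11.71 against 11.94, 11.93, 11.93 and 11.73 in the unconventional clone, a change of 0.24 (SE 0.07, adjusted p = 0.012). The fall ended under 9 settings, with adjusted p up to 0.12, while the difference between the changes, 0.43 (SE 0.10, adjusted p = 0.003), was kept under all 22.

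Of the complex V promoters, 10 of 15 held NRF1 or GABPA letters, 66.7% against 32.4% of the genes with a group mean of at least 6. That of Atp5k is shown as a member whose change differed between the clones. It lies on the minus strand with the stretch at chr5:108434400-108434649 and has 1 copy of the NRF1 letters. Its window also holds GABPA letters that do not lie wholly inside the printed stretch:
Atp5k: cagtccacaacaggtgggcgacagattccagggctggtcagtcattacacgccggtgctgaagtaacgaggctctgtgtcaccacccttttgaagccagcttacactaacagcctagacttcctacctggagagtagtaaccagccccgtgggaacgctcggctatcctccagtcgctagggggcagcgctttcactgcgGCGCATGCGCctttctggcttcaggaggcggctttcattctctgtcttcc
Over the complexes, the letters were found in 8 of the 18 members with a promoter that rose in both clones, 44.4% and so close to the 43.8% of all members, and in 3 of the 11 that fell in the conventional clone, 27.3%.

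**Figure D2:**
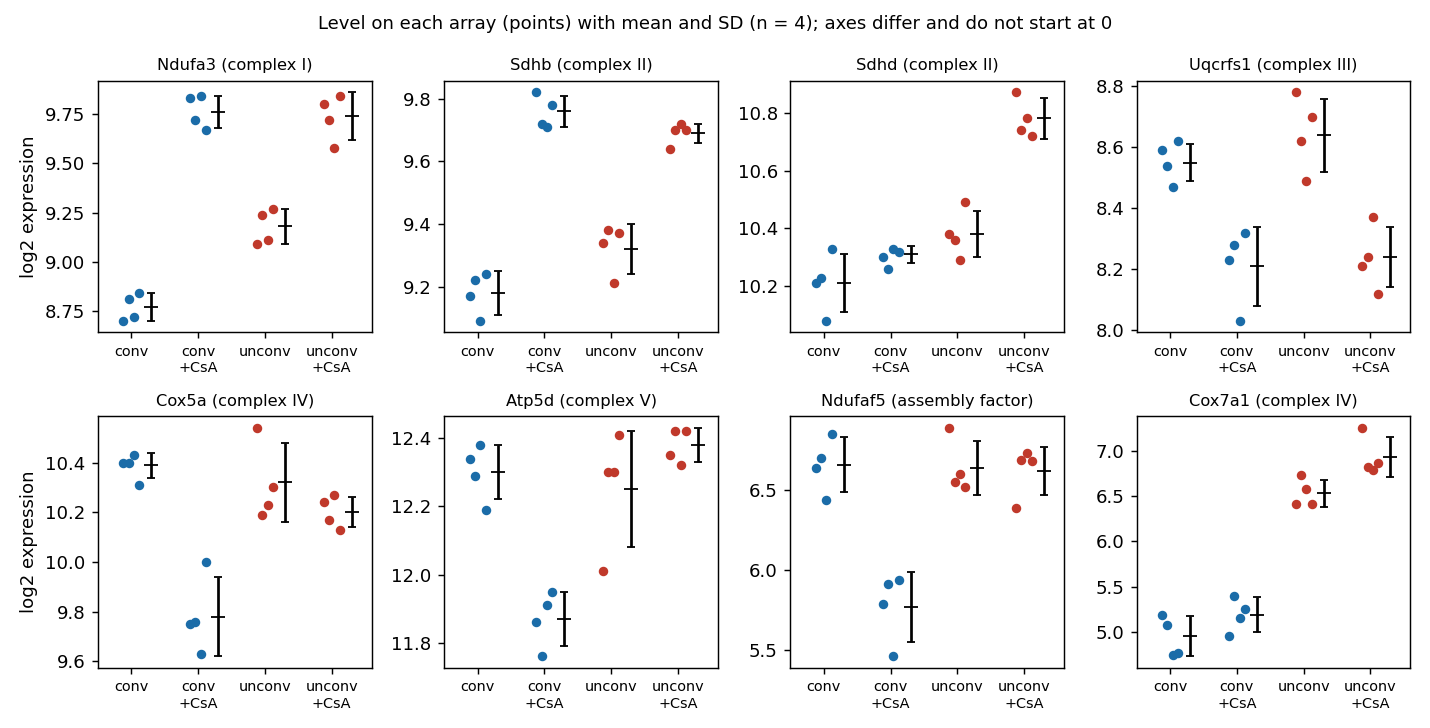
Each panel gives the log2 level of 1 gene on the 16 arrays by group (conv and unconv, the conventional and unconventional clone with anti-CD3; +CsA, with cyclosporine A), with the mean and SD of 4 arrays beside the points. Ndufa3 and Sdhb rise in both clones, Uqcrfs1 falls in both, Sdhd rises in the unconventional clone, Cox5a, Atp5d and Ndufaf5 fall in the conventional clone, and Cox7a1 separates the clones; axes differ between panels and do not start at 0.

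The drug comparisons in the clones share no arrays, so their calls can be set side by side. Of the 89 members, 22 rose in both clones, 3 fell in both and 1 was called in opposite directions, and 32 were called in neither. Over all 19938 genes the numbers were 1557, 1686, 223 and 12165. They were not counted among the brighter genes alone, where calls are more frequent, so no like background stands beside the members' numbers. The falls in both clones were Ndufaf2, Ndufaf4 and Uqcrfs1. A further 19 members rose in the unconventional clone and were not called in the conventional one, while 4 rose in the conventional clone and were not called in the other, which by itself does not show that the changes differ.

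The difference of the changes, unconventional minus conventional, was called for 15 members, 13 above 0 and 2 below, where 8.51% of all genes were called above 0 and 7.78% below. Among the 9645 genes with a group mean of at least 6 the shares were 16% and 14.6%, so the members' 14.6% above 0 was near the background and their 2.25% below it was under it. After cyclic loess normalization the split was 11 above and 4 below. Its median over the members was 0.11, against 0.00 over all genes. Of the 13, the 4 assembly factors Ndufaf2, Ndufaf3, Ndufaf5 and Ndufaf6 made up the largest group, with 3 complex I subunits, Ndufab1, Ndufc2 and Ndufs6, 3 of complex V, Atp5d, Atp5g3 and Atp5k, and 1 each of complexes II, III and IV, Sdhd, Uqcrc1 and Cox5a. The 2 below 0 were Ndufa3 at -0.44 (SE 0.10, adjusted p = 0.005) and Cox7a2l. For Ndufa3, Atp5d, Ndufaf5, Cox5a, Ndufab1, Ndufaf3, Atp5g3, Uqcrc1 and Ndufc2 all 22 alternative settings kept the call. With 1 array left out the number above 0 was 8 to 12, and the 8 came without replicate 2 of the unconventional group with anti-CD3 alone.

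**Figure D3:**
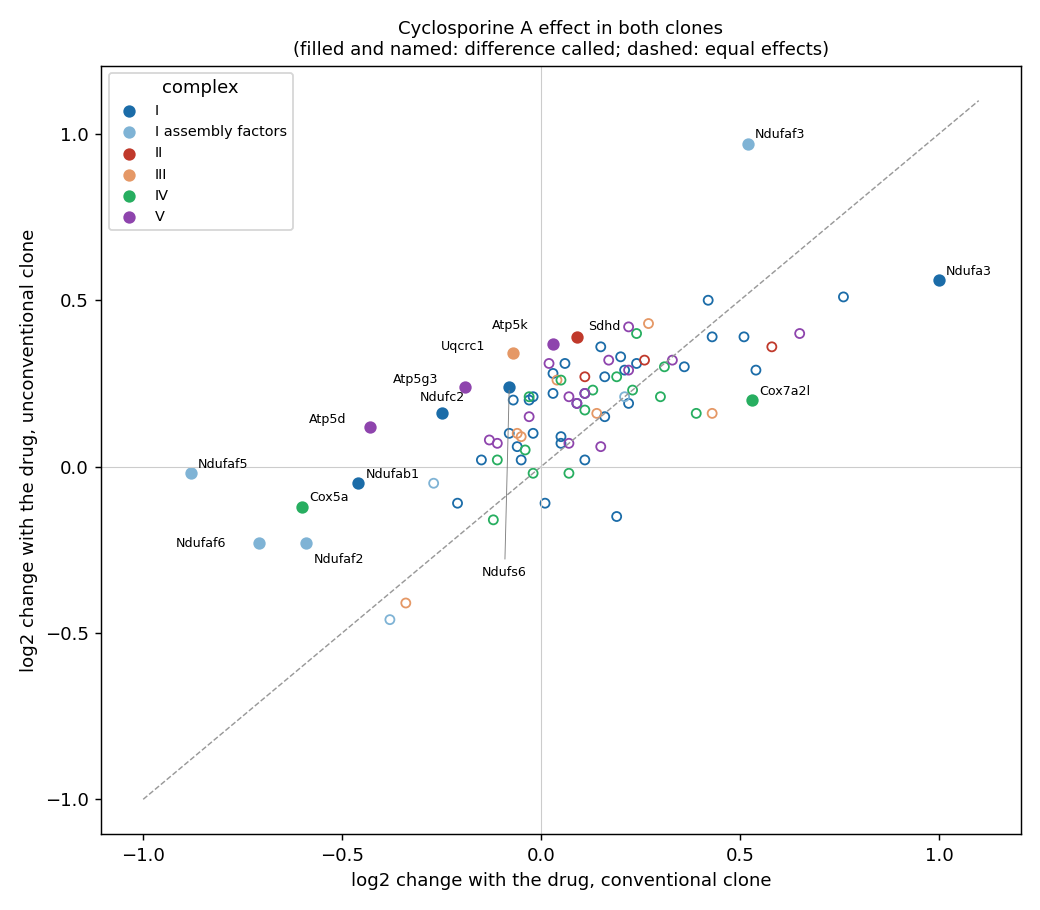
The log2 change with cyclosporine A in the conventional clone (horizontal axis) is set against that in the unconventional clone (vertical axis) for the 89 genes, coloured by complex; filled, named points are the 15 genes whose difference was called and the dashed line marks equal changes. Of these, 13 lie above the line and Ndufa3 and Cox7a2l below it.

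The clones were then compared with each other, first with anti-CD3 alone. These comparisons reuse the arrays of the drug comparisons and are not independent of them. The unconventional clone had the higher level for 36 members and the lower for 10, where 20.3% of all genes were called higher and 21.7% lower. The median difference, unconventional minus conventional, was 0.15 over the members and -0.07 over all genes. With a group mean of at least 6 required, it was 0.15 over the 83 members left and 0.06 over all such genes. After cyclic loess normalization it was 0.08 over the members and -0.00 over all genes. Among the 9645 genes with a group mean of at least 6, 38.7% were called higher and 28.6% lower in the same fit, so that the share of all 89 members called higher, 40.4%, was near the background and the share called lower, 11.2%, was under it. Their arrays did not overlap for 43 of the 89 members, against 38.6% of all genes, and the share among the brighter genes was not counted.

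With cyclosporine A in both, 48 members were higher in the unconventional clone and 10 lower, where 21.3% of all genes were called higher and 23.0% lower, and 40.2% and 31.6% of the genes with a group mean of at least 6. The median difference was 0.22, against -0.08 over all genes. With a group mean of at least 6 required, it was 0.30 over the 83 members left and 0.05 over all such genes. After cyclic loess normalization it was 0.19 over the members and -0.01 over all genes. The arrays did not overlap for 64 of the 89 members, against 42.2% of all genes, with the share among the brighter genes again not counted. In both conditions 33 members were higher and 7 were lower: Cox5b, Cox7a2l, Ndufa1, Ndufa11, Ndufa5, Ndufa7 and Sdhc. No member was called in opposite directions.

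Complex V was called in 1 direction, with 9 of 17 genes higher and 0 lower without the drug and 14 higher and 0 lower with it, and 0 were lower at an unadjusted p under 0.05 in either condition. Those higher were 52.9% and 82.4% of its genes, against 38.7% and 40.2% of the brighter genes. Atp5c1 read 11.90, 11.91, 11.80 and 11.92 in the conventional and 12.29 on all 4 arrays of the unconventional clone without the drug, a difference of 0.41 (SE 0.06, adjusted p = 6.3e-06), which was 0.56 (SE 0.06) with it. Atp5pb, of the outer stalk, differed by 0.50 (SE 0.08) and 0.41 (SE 0.08), and Atp5g3 by 0.21 (SE 0.07) and 0.64 (SE 0.07). With the drug all 6 genes of the head, central stalk and Atp5o were higher in the unconventional clone, by 0.22 to 0.56. Without it Atp5b and Atp5d differed by 0.05 (SE 0.06) and -0.05 (SE 0.08), and the call of Atp5a1 at 0.14 (SE 0.06) was ended by 17 settings.

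Complex III was higher in 4 of 8 genes without and 5 of 8 with the drug, and lower in 0 by limma; at an unadjusted p under 0.05, 1 gene was lower without the drug and 0 with it. The higher ones were 50% and 62.5%, against 38.7% and 40.2% of the brighter genes. Uqcrc2 read 11.24, 11.23, 11.13 and 11.27 in the conventional and 11.59, 11.68, 11.63 and 11.69 in the unconventional clone without the drug, a difference of 0.43 (SE 0.06, adjusted p = 5.9e-06), and 0.59 (SE 0.06) with it. Uqcrb differed by 0.65 (SE 0.09) and 0.38 (SE 0.09). Its partner Uqcrc1 differed by 0.16 (SE 0.08), not called, and with the drug by 0.57 (SE 0.08).

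Complex I was divided, with 16 of 36 subunits higher and 5 lower without the drug and 17 higher and 6 lower with it. Without the drug these were 44.4% and 13.9%, against 38.7% and 28.6% of the brighter genes. With it they were 47.2% and 16.7%, against 40.2% and 31.6%. The core subunits lay on the higher side. Ndufs7 read 10.06, 10.00, 10.05 and 9.97 in the conventional and 10.24, 10.63, 10.60 and 10.70 in the unconventional clone, a difference of 0.52 (SE 0.09, adjusted p = 5.0e-05), which was 0.79 (SE 0.09, adjusted p = 1.7e-07) with the drug. Ndufs3 differed by 0.35 and 0.37 (SE 0.06 each), Ndufv1 by 0.32 and 0.51 (SE 0.08 each) and Ndufs8 by 0.25 and 0.32 (SE 0.09 each), the first call of Ndufs8 ending under 7 settings. Ndufs1 and Ndufv2 were called in neither condition. Of the accessory subunits, Ndufab1 differed by 0.27 and 0.68, the largest difference among them with the drug. Ndufa4 differed by 0.53 (SE 0.07) and 0.64 (SE 0.07) and Ndufa9 by 0.38 and 0.60 (SE 0.07 each).

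Ndufa1 and Ndufa11, both accessory subunits of the membrane arm, were among the lower ones. Ndufa1 read 9.61, 9.44, 9.47 and 9.45 in the conventional and 8.75, 8.86, 8.95 and 9.05 in the unconventional clone without the drug, a difference of -0.59 (SE 0.08, adjusted p = 3.6e-06), and -0.64 (SE 0.08) with it. Ndufa11 differed by -0.60 (SE 0.07) and -0.46 (SE 0.07). Both rose with the drug in each clone, as given above, so the drug and the clone moved them in opposite directions. Of the assembly factors, 3 of 7 were higher and 1, Ndufaf3, lower without the drug, and 5 were higher and 0 lower with it. Ndufaf6 differed by 0.59 (SE 0.11) and 1.06 (SE 0.11) and Ndufaf2 by 0.59 (SE 0.08) and 0.95 (SE 0.08).

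Complex II split within itself. Sdhc read 10.20, 10.17, 10.20 and 10.29 in the conventional and 9.40, 9.71, 9.65 and 9.67 in the unconventional clone without the drug, a difference of -0.61 (SE 0.07, adjusted p = 1.1e-06), and -0.56 (SE 0.07, adjusted p = 2.8e-06) with it. Its fellow anchor Sdhd differed by 0.17 (SE 0.07) and 0.47 (SE 0.07), the first call ending under 17 settings. Sdha differed by 0.17 (SE 0.06) and 0.32 (SE 0.06), with the first call ending under 12 settings, and Sdhb was called in neither condition.

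Over all 17 genes complex IV leaned to neither clone: 2 higher and 3 lower without the drug and 5 higher and 3 lower with it, with medians of -0.03 and 0.01. Of the 17, 5 lay below 6 in every group. Among the 10 without the tissue isoforms, 1 was higher and 2 lower without the drug, with a median of 0.01. With it 4 were higher and 2 lower, with a median of 0.14. These were 40% and 20%, against 40.2% and 31.6% of the brighter genes. Cox7a1 carried the largest clone difference of any member. Its 8 arrays in the unconventional clone, at 6.41 to 7.25, lay above the 8 in the conventional clone, at 4.75 to 5.40, by 1.59 (SE 0.12, adjusted p = 1.6e-09) without and 1.74 (SE 0.12, adjusted p = 2.7e-10) with the drug. The level in the conventional clone was near the low end of the arrays, so these differences may be understated. The ubiquitous isoform Cox7a2 differed by 0.21 (SE 0.07), a call that 6 settings ended, and 0.11 (SE 0.07). The related Cox7a2l differed the other way, by -0.35 (SE 0.08) and -0.68 (SE 0.08). Cox5b differed by -0.23 (SE 0.06) in both conditions; the call with the drug ended when the arrays were quantile-normalized again, at adjusted p = 0.44. Cox5a differed by -0.07 (SE 0.09), and by 0.42 (SE 0.09) with the drug.

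**Figure D4:**
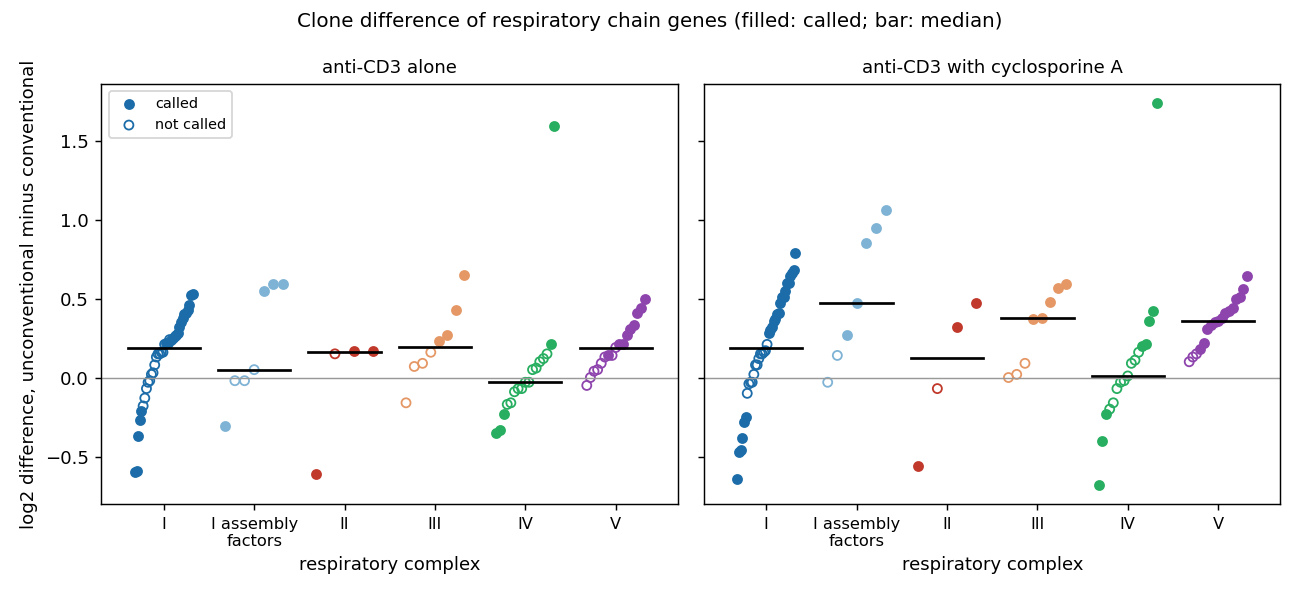
The vertical axis gives the log2 difference of each of the 89 genes, unconventional minus conventional clone, with anti-CD3 alone on the left and with cyclosporine A on the right, by complex; filled points were called and bars are medians. Complexes III and V lie above 0 with no called gene below it, complex IV lies around 0, and Cox7a1 stands highest at 1.59 and 1.74.

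Other mitochondrial genes were counted on lists that hold no member. All 77 genes of the mitochondrial ribosome had a group mean of at least 6, so their shares stand beside those of the 9645 such genes. With the drug in the conventional clone 39 fell and 6 rose, 50.6% and 7.79% against 29.5% and 28.4%, with a median of -0.21. In the unconventional clone 21 fell and 5 rose, 27.3% and 6.49% against 23.8% and 23.2%, with a median of -0.11, so that the share that fell was near the background there. Of these genes 20 fell in both clones and 2 rose in both. Mrpl1 fell by 1.18 (SE 0.08) and 0.45 (SE 0.08), and Mrpl13 by 0.98 (SE 0.09) and 0.46 (SE 0.09), both proteins of the large ribosomal subunit. Mrpl38, also of the large subunit, had changes of -0.89 (SE 0.08) and -0.06 (SE 0.08), a difference of 0.84 (SE 0.11, adjusted p = 1.3e-05). Between the clones 49 of the 77 were higher and 6 lower in the unconventional clone with anti-CD3 alone, and 60 were higher and 7 lower with the drug. With anti-CD3 alone these were 63.6% and 7.79%, against 38.7% and 28.6% of the 9645 genes. With the drug they were 77.9% and 9.09%, against 40.2% and 31.6%.

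Some of the lists below held genes under 6 in every group, which the brighter genes exclude. These were 2 import genes, 2 for mitochondrial DNA, 1 of the citric acid cycle, 2 assembly factors, 3 carriers and 2 regulators. Of 24 genes for protein import, 13 were lower and 3 higher in the conventional clone, 54.2% lower against 29.5% of the brighter genes, and 9 were lower and 2 higher in the unconventional clone, 37.5% lower against 23.8%. Timm50, a receptor of the inner membrane translocase, fell by 0.82 (SE 0.06) and 0.49 (SE 0.06), and the small import chaperone Timm8a1 by 0.77 (SE 0.07) and 0.50 (SE 0.07). Of 12 genes for upkeep and transcription of mitochondrial DNA, 6 fell in each clone, and 1 and 0 rose. The falls were 50% of the list, against 29.5% and 23.8% of the brighter genes. At an unadjusted p under 0.05, 0 were higher in the unconventional clone. Top1mt, the mitochondrial topoisomerase, fell by 1.21 (SE 0.09) and 0.68 (SE 0.09), the helicase Twnk by 0.79 (SE 0.14) and 0.45 (SE 0.14), and the polymerase Polg by 0.32 (SE 0.09) and 0.98 (SE 0.09). Of 10 genes for quinone synthesis, 4 fell and 2 rose in each clone, 40% and 20% of the list. Of the brighter genes 29.5% fell and 28.4% rose in the conventional clone, and 23.8% and 23.2% in the unconventional clone. Among those called were Coq4 with falls by 0.67 (SE 0.08) and 0.24 (SE 0.08) and Coq10a with rises of 0.80 (SE 0.07) and 0.22 (SE 0.07).

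The citric acid cycle and pyruvate entry list resembled the subunits in its counts only in the unconventional clone. There 7 of 17 genes rose and 2 fell, 41.2% and 11.8% against 23.2% and 23.8% of the brighter genes. In the conventional clone 3 rose and 6 fell, 17.6% and 35.3% against 28.4% and 29.5%. Ogdh, of the oxoglutarate dehydrogenase complex, rose in both by 0.28 (SE 0.06) and 0.34 (SE 0.06). Fh1, fumarase, had changes of -0.52 (SE 0.07) and -0.08 (SE 0.07), and Pcx, pyruvate carboxylase, fell by 0.58 (SE 0.08) and 1.46 (SE 0.08). Of 39 assembly factors outside the name rule, 10 rose and 11 fell in the conventional and 5 rose and 7 fell in the unconventional clone. The conventional shares, 25.6% and 28.2%, were near those of the brighter genes. The unconventional shares, 12.8% and 17.9%, were below them. Cox20, which helps mature a subunit of complex IV, rose by 0.90 (SE 0.10) and 0.88 (SE 0.10). Surf1, another factor of complex IV, rose by 0.37 (SE 0.07) and 0.44 (SE 0.07), and stood higher in the unconventional clone by 0.98 (SE 0.07). Sdhaf2, which attaches the flavin to complex II, rose by 0.61 (SE 0.07) in the conventional clone and had a change of 0.13 (SE 0.07) in the other.

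**Figure D5:**
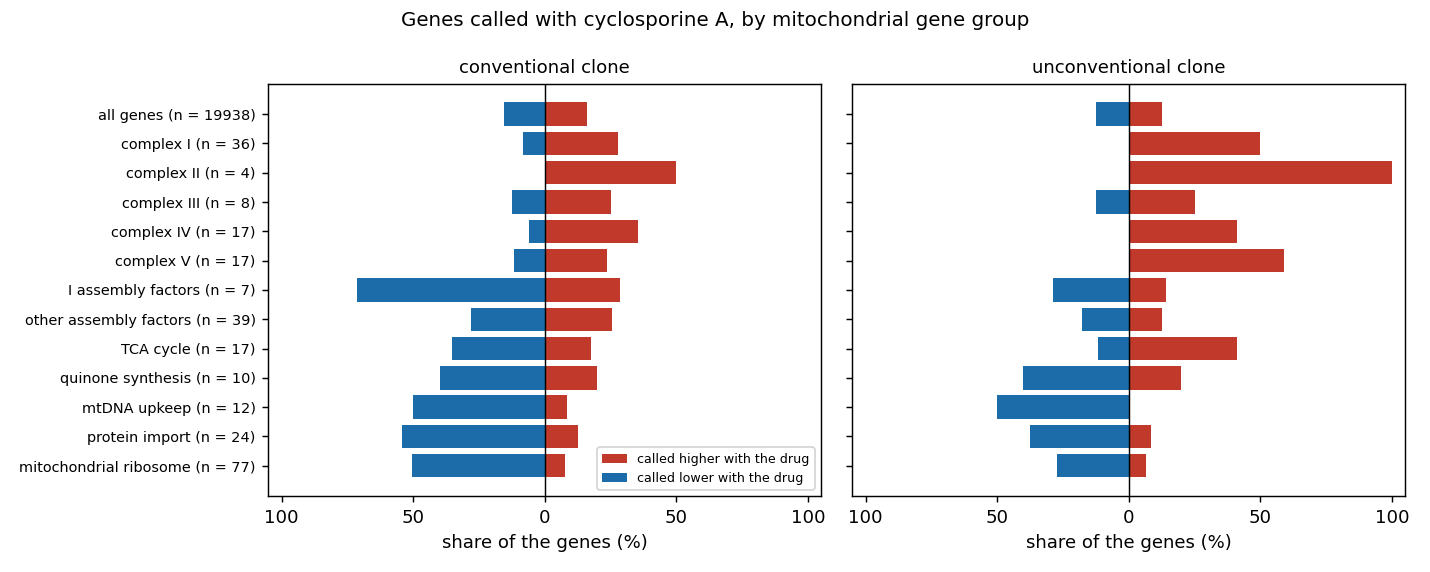
Bars give the share of genes of each mitochondrial group called higher (right, red) or lower (left, blue) with cyclosporine A, in percent, in the conventional clone (left panel) and the unconventional clone (right panel). The subunits of the complexes lean to the right and the mitochondrial ribosome, import and DNA upkeep groups to the left, while all genes are near even at 15.9% and 15.5%, and 12.6% and 12.3%.

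Of 9 carriers and channels of the membranes, 1 rose and 3 fell in the conventional clone, 11.1% and 33.3% against 28.4% and 29.5% of the brighter genes. As 3 of the 9 lay below 6 in every group, these shares are not of like genes. The one that rose, Ucp3, was among the dim ones, at means of 4.49 without and 5.05 with the drug. By limma 0 were called in the unconventional clone, against 23.2% higher and 23.8% lower of the brighter genes. At an unadjusted p under 0.05, 1 was higher and 0 lower there. Slc25a4, the ADP and ATP carrier, had changes of -0.29 (SE 0.07) and 0.12 (SE 0.07), a difference of 0.41 (SE 0.10, adjusted p = 0.006), and Vdac1, a channel of the outer membrane, had changes of -0.55 (SE 0.08) and -0.05 (SE 0.08), a difference of 0.50 (SE 0.12, adjusted p = 0.005). The 2 probe sets of subunits encoded by mitochondrial DNA, ND3 of complex I and COX2 of complex IV, were not called with the drug in either clone, at changes of 0.12 to 0.19, with 1 higher at an unadjusted p under 0.05 in each, and ND3 was lower in the unconventional clone by 0.44 (SE 0.08) and 0.45 (SE 0.08).

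Among 13 regulators of respiratory genes, 2 rose and 3 fell in the conventional clone, 15.4% and 23.1% against 28.4% and 29.5% of the brighter genes. In the unconventional clone 1 rose and 6 fell, 7.69% and 46.2% against 23.2% and 23.8%. Hif1a, the oxygen-sensitive subunit of HIF, fell by 1.42 (SE 0.07) and 0.88 (SE 0.07) and Myc by 1.17 (SE 0.06) and 0.39 (SE 0.06). Pprc1, a coactivator of the PGC family, fell by 0.43 (SE 0.07) and 0.44 (SE 0.07). Gabpb1, the partner chain of GABPA, had a change of 0.08 (SE 0.07) in the conventional clone and fell in the other by 0.54 (SE 0.07, adjusted p = 4.6e-06). Ppargc1a, a coactivator known for driving mitochondrial biogenesis, lay between 3.67 and 4.45 in the group means, near the low end of the arrays. Myc, Hif1a and Pprc1 were the 3 regulators that fell in the conventional clone. Ppard, 1 of the 2 that rose there, had a change of 0.27 (SE 0.10) in it and of -0.10 (SE 0.10) in the unconventional clone. No relation between regulators and subunits was tested.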

How the data were processed

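RNA of 16 samples, 4 in each of 4 groups, was measured on Affymetrix whole-transcript arrays. The authors deposited 1 log2 value per probe set and array; the log2 scale was inferred from the range of 2.08 to 14.55. GCOS, Partek 6.2 and RMA are named in the submitters' processing notes, without their roles. RMA makes array distributions alike and compresses differences of dim probe sets. The authors' genome build is not given in the sources used here. Precision is limited by the number of arrays.

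Of 28853 probe sets, 21789 had 1 symbol, 1621 several and 5443 none here; 6 probe sets that matched a member name along with another symbol were left out, which is why Ndufb4 and Cox7c are missing. For 17 members with several probe sets the brightest was used. All 89 members matched the RefSeq gene table of GRCm38.p6. Processed copies of many of these genes lie elsewhere in the mouse genome, and whether probes also match those was not tested.

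Group means and their contrasts were estimated jointly from the 16 arrays (lmFit, contrasts.fit and eBayes of limma 3.58.1, R 4.3.3, two-sided, 12 residual degrees of freedom). P-values were adjusted over 19938 genes. No filter on dim genes was applied to the reported results. Groups came from the labels. The steps were tested on simulated data. Promoters came from a RefSeq table, which served only for a search of motif letters.

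The members, gene lists and complexes were chosen with earlier results of these data known, so no test over a list was made. Genes described one by one were the members that form the catalytic core or carry cofactors, the isoform families, and in each comparison and complex up to 2 members with the largest called rise and fall; from other lists up to 3 genes with the largest absolute change, of which those shown are a part. A few further members (Atp5h, Atp5k, Ndufa9, Ndufb7, Ndufb9 and other complex I subunits) were added after their values were seen. The alternatives were 2 further normalizations, a dim gene filter, the mean over probe sets, an intensity trend in the variance, a fit of only the groups compared, the replicate number as a block, a fold requirement of 1.5 and each array left out in turn.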

Additional observations from a re-analysis of the deposited data

Results flagged for a closer look

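The change with cyclosporine A differed between the clones for 15 members by the interaction term of limma, adjusted over 19938 genes; in the order unconventional minus conventional the differences were -0.44 for Ndufa3 (adjusted p = 0.005), -0.33 for Cox7a2l (0.045), 0.30 for Sdhd (0.038), 0.32 for Ndufs6 (0.030), 0.35 for Atp5k (0.022), 0.35 for Ndufaf2 (0.032), 0.41 for Ndufab1 (0.005), 0.41 for Uqcrc1 (0.021), 0.42 for Ndufc2 (0.016), 0.43 for Atp5g3 (0.003), 0.45 for Ndufaf3 (0.004), 0.48 for Ndufaf6 (0.044), 0.49 for Cox5a (0.007), 0.55 for Atp5d (0.001) and 0.87 for Ndufaf5 (6.2e-04).

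One array stood far from the other 3 of its group in 20 of the 356 groups of 4 values (89 members in 4 groups), where chance gives about 1 in 20. With anti-CD3 alone, the conventional clone had a low value of Atp5c1 on replicate 3 (11.80), a low one of Atp5g3 on replicate 4 (11.33) and a high one of Cox8c on replicate 3 (5.69). With the drug it had a low Atp5o on replicate 2 (9.65) and high values of Cox4i2 on replicate 3 (5.83) and of Ndufb3 (7.82) and Ndufb6 (11.04) on replicate 4. The unconventional clone without the drug had high values of Atp5h on replicate 3 (11.43) and Atp5pb on replicate 1 (11.72), and low values of Atp5md on replicate 4 (12.05), Ndufb10 on replicate 2 (7.06) and Ndufb8 on replicate 1 (8.78). With the drug it had low values of Atp5e (9.66), Atp5j2 (11.44) and Ndufa11 (8.86) on replicate 3, of Atp5g3 on replicate 4 (11.73) and of Ndufaf5 on replicate 1 (6.39). In the same group Cox7a1 was high on replicate 1 (7.25), and Atp5k (9.27) and Ndufa8 (9.92) were high on replicate 2.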

How the results depend on the processing

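Of the members called, 29 of 38 (drug, conventional clone), 35 of 45 (drug, unconventional clone), 32 of 46 (clones, anti-CD3 alone) and 52 of 58 (clones, with the drug) kept their call under all 23 alternatives, and 9 of the 15 differences between the drug changes kept theirs under the 22 that could be computed; with only 2 groups fitted there is no such difference. None of the results reversed. A further requirement of 1.5-fold left 3 higher and 4 lower with the drug in the conventional clone, 1 and 0 in the unconventional clone, 1 and 0 for the difference, 4 and 3 between the clones without and 12 and 2 with the drug. The number of differences below 0, 2 in the reported analysis, was 4 after cyclic loess normalization (11 above 0), 5 with a group mean of at least 6 required, 4 with an intensity trend, 1 with the mean over probe sets, 1 after a second quantile normalization, 1 with the replicate block and 1 to 3 with 1 array left out; the cause was not tested. The number above 0 was 8 to 12 with 1 array left out, the 8 without replicate 2 of the unconventional group with anti-CD3 alone. Leaving out 1 array gave 22 to 26 higher and 9 to 13 lower with the drug in the conventional and 36 to 45 and 2 to 3 in the unconventional clone. Same-numbered arrays of different groups had correlations of -0.137 to 0.284 in their deviations from the group means, with a median of 0.036. Arrays of other numbers had -0.357 to 0.356, with a median of -0.014. Of the 16 arrays, 7 correlated best with one of their own number. Whether the numbers pair the samples is not settled by these values. With the replicate number as a block the counts were 27 higher and 11 lower with the drug in the conventional clone and 43 and 3 in the unconventional clone. They were 12 and 1 for the difference and 48 and 10 between the clones with the drug. The fold requirement moved each count by over 1.5 times. Under the other alternatives only the counts of differences above 0 and below 0 moved by that much. The 6 members below a mean of 6 in every group sit near the low end of the arrays, where changes are compressed.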
